A study of Mus musculus with 8 samples.

Results

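The genes described are 10 transcription factors known for their part in the effector differentiation of CD8+ T cells: *Tbx21*, *Eomes*, *Prdm1*, *Id2*, *Zeb2*, *Runx1*, *Runx3*, *Bhlhe40*, *Gata3* and *Ikzf2*. They were chosen by symbol, and each matched 1 row of the 22520 genes and assembled transcripts measured. CD8+ T cells were purified from the spleens of wild-type mice by magnetic negative selection, activated with antibodies to CD3 and CD28 together with IL-2, and kept under this stimulation until day 6, a culture used as a model of T cell exhaustion. From day 3, the medium held 40 µM DADA (diisopropylamine dichloroacetate, an inhibitor of pyruvate dehydrogenase kinase) or its solvent DMSO. Both groups shared the stimulation and differed by the drug, and 4 bulk RNA-seq libraries per group were labelled as biological replicates. The study's methods list C57BL/6J, BALB/c and NCG mice without tying these cells to one of them. The labels do not give strain, age or sex, and they do not say whether the 4 replicates came from separate animals or from wells of 1 preparation. The p-values below therefore judge differences against the variation between these libraries, which may not be that between animals.

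Naive CD8+ T cells that meet antigen divide and become cytotoxic effector cells, and a few transcription factors set how far each cell goes. T-bet (*Tbx21*) and Eomes are paired T-box activators of cytotoxic genes, and Blimp-1 (*Prdm1*) and Zeb2 are repressors that push cells towards terminal effector fates. Id2 holds E proteins away from DNA, Runx factors open and keep the cytotoxic program, Bhlhe40 sustains cytokine production and mitochondrial function, and Gata3 and Helios (*Ikzf2*) are best known from helper and regulatory T cells, though CD8+ T cells use them too.

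Expression is given as FPKM, fragments scaled by transcript length and by the mapped fragments of the library, a scale on which levels of different genes can be compared. Differences are log2 fold changes of FPKM + 1, DADA against DMSO, tested with limma over the 10666 genes with 1 FPKM or more in at least 4 of 8 libraries. A gene was called at a Benjamini-Hochberg adjusted p-value under 0.05. Total FPKM ranged from 450473 to 456939 across the DMSO libraries and from 438299 to 449480 across the DADA libraries, and the estimated depth ranged from 13900000 to 16300000 and from 15300000 to 19100000 mapped fragments. DADA was accompanied by changes in much of the transcriptome: 66.2% of the genes tested were called, 30.9% as higher and 35.3% as lower with DADA, with a median log2 fold change of -0.02 and a median size of 0.21.

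Of the 10 factors, *Prdm1*, *Id2*, *Runx3*, *Bhlhe40*, *Tbx21* and *Ikzf2* rose with DADA, *Gata3* and *Eomes* fell, *Zeb2* was not called, and *Runx1* was too low to be tested. That is 6 higher and 2 lower among the 9 tested, against 30.9% of all genes tested called higher and 35.3% called lower (66.2% together). The median log2 fold change over the 9 was 0.64. *Prdm1* was below 1 FPKM in every DMSO library and passed the filter through its DADA libraries alone. It had to be higher with DADA to be tested, so its rise and the separation of its groups came with the filter. The rises spanned log2 fold changes from 0.33 for *Ikzf2* to 2.36 for *Prdm1*, and the falls were -0.36 for *Eomes* and -0.75 for *Gata3*. For each of the 8 called factors the 4 DADA libraries lay all above or all below the 4 DMSO libraries, as they did for 60.6% of all genes tested. In bulk RNA, fewer cells that express a gene and less RNA of it per cell cannot be told apart.

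**Figure D1:**
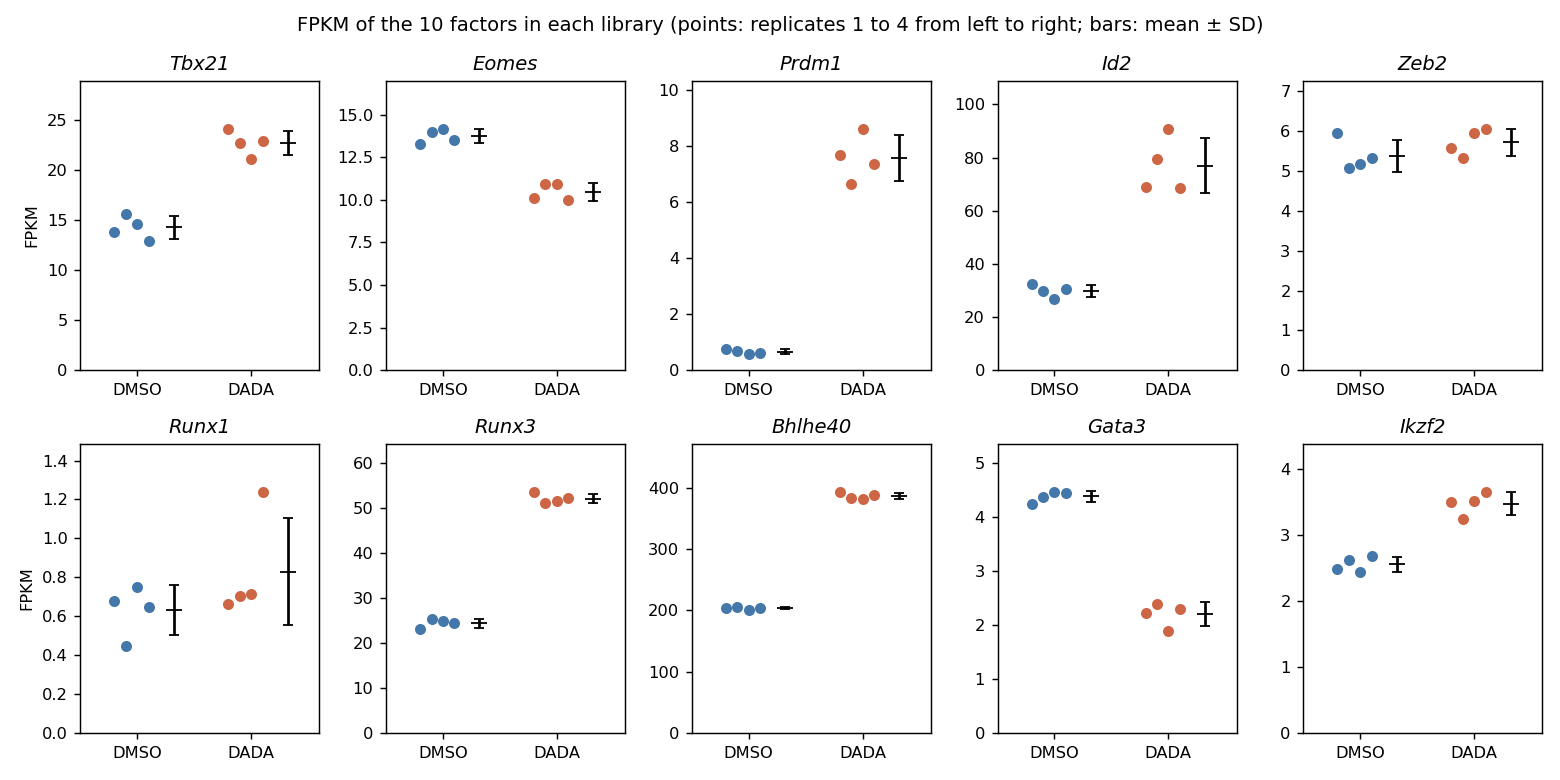
FPKM (vertical axes, each from 0) of the 10 factors in the 4 DMSO libraries (blue) and the 4 DADA libraries (red), with the mean and SD (n = 4) of each group beside the points. *Prdm1* went from below 1 FPKM in every DMSO library to at least 6.64 FPKM in every DADA library, and only *Zeb2* and *Runx1* had groups that overlapped.

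**Figure D2:**
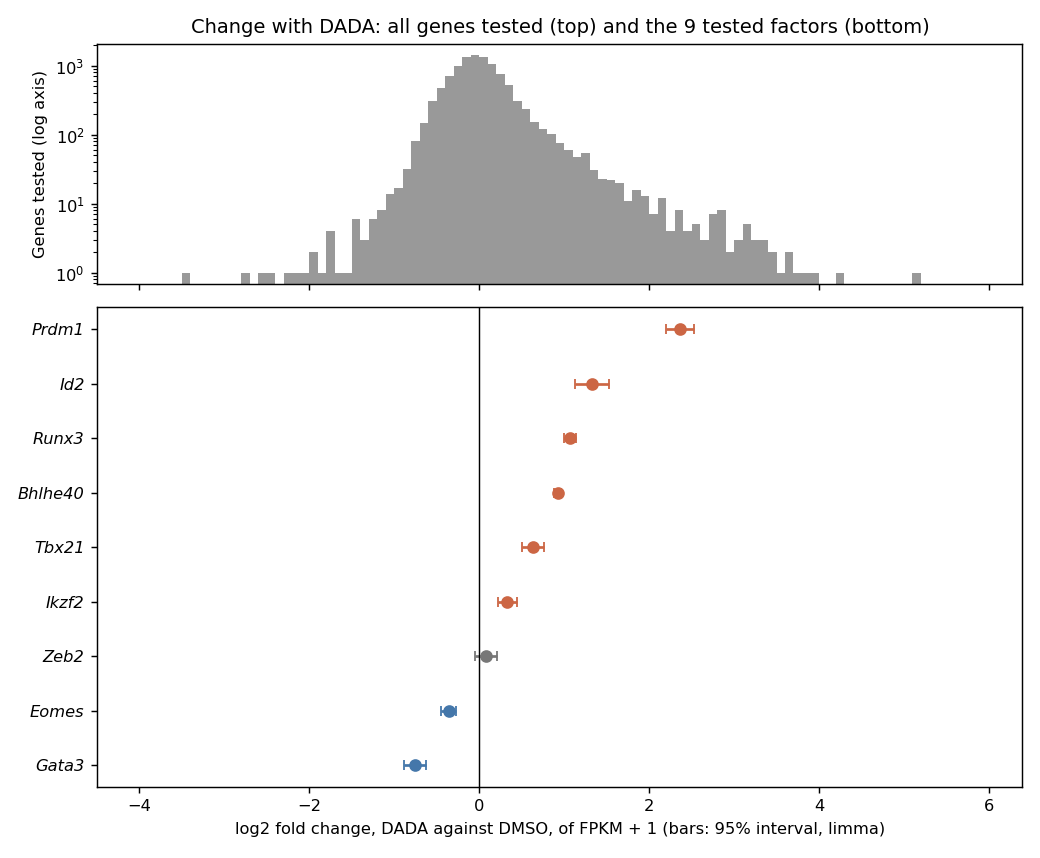
Log2 fold changes of FPKM + 1, DADA against DMSO, for all 10666 genes tested (upper panel, gene counts on a log axis) and for the 9 factors tested (lower panel, point and 95% interval from limma; red higher, blue lower, grey not called). The factors ran from -0.75 for *Gata3* to 2.36 for *Prdm1*, and the interval of *Zeb2*, -0.05 to 0.21, includes 0.

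The promoters of the factors were read for short motifs of the same factor families. The RefSeq promoter table for GRCm38.p6, with 250 bases before and 50 after each start, held 13 windows for 8 of the 10 factors. No window matched for *Bhlhe40* or *Ikzf2*. A tandem pair of Runt-family motifs stood out, since the Runx genes carried it themselves. The letters TGTGGT, searched on both strands, were in 2 of the 13 windows and in 16.8% of all 32851 windows. In 1 window each of *Runx3* and *Runx1* they occurred as a pair, and so did they in the window of *Runx2*, the remaining member of the family. The 30 bases around the pair are shown because the family is compared below. Capitals mark the motif, which reads ACCACA on this strand.

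*Runx3*, chr4:135120503-135120532, plus strand, positions -142 to -113 from the start: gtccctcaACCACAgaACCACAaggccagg

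*Runx1*, chr16:92826025-92826054, minus strand, positions 20 to 49 from the start: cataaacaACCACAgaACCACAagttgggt

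*Runx2*, chr17:44814583-44814612, minus strand, positions 15 to 44 from the start: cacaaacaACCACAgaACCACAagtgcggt

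All 3 sequences shared 19 of the 30 letters, of which 18 in 1 unbroken run, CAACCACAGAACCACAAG. A pair of TGTGGT motifs with starts 8 bases apart, on either strand, was in 20 of the 32851 windows. The 14 letters of the pair, ACCACAGAACCACA, read from the *Runx3* window itself, were found in 4 of the 32851 windows (0.0122%). These were the windows of the 3 Runx genes and that of *Gm16225*, which lies on the opposite strand and overlaps the *Runx3* window. The match is a description of the letters and says nothing of binding in these cells.

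The letters CAGGTG, the E-box form bound by Zeb factors and E proteins, were in 4 of the 13 windows and in 20.2% of all windows. They occurred in single windows of *Tbx21*, *Prdm1*, *Runx3* and *Runx1*, on either strand. The 250 bases before the start are shown for *Prdm1* and *Tbx21*, with CAGGTG in capitals, because *Prdm1* had the largest rise and the rise of *Tbx21* is set against *Eomes* below.

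*Prdm1*, chr10:44458749-44458998, minus strand: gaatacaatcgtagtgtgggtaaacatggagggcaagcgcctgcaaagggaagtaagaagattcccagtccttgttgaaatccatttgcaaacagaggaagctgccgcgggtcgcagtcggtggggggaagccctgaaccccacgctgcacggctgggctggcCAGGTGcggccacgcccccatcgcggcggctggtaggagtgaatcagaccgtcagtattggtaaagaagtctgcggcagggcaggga

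*Tbx21*, chr11:97115332-97115581, minus strand: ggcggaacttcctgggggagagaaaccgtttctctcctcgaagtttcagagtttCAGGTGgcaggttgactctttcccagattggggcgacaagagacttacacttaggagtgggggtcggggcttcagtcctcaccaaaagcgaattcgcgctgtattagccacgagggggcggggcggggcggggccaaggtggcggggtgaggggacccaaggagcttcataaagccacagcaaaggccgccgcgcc

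Of the other motifs, the palindrome CACGTG of Bhlhe40 was in 1 window of *Runx1*, against 7.15% of all windows. The T-box letters AGGTGT, which can overlap CAGGTG, and the GATA letters AGATAA were in none of the 13 windows, against 13.7% and 11.2% of all windows.

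The T-box pair moved apart. *Tbx21* (ENSMUSG00000001444), which encodes T-bet, the activator of *Ifng* and of cytotoxic genes, was at 13.9, 15.7, 14.6 and 13.0 FPKM in the DMSO libraries and rose to 24.1, 22.7, 21.2 and 22.9 FPKM in the DADA libraries. The lowest DADA library was above the highest DMSO library, and the means were 14.3 ± 1.15 and 22.7 ± 1.20 FPKM (SD, n = 4), a ratio of 1.59 that ran from 1.35 to 1.86 between single libraries. The log2 fold change was 0.64 (standard error, SE, 0.0572, limma, adjusted p = 4.94e-06). With the groups fully separated, the exact permutation test gave p = 0.0286, the smallest that 4 against 4 libraries allow. *Eomes* (ENSMUSG00000032446), the related factor associated with memory and, at high levels, with exhausted CD8+ T cells, stood at 13.3, 14.0, 14.1 and 13.5 FPKM with DMSO and at 10.1, 11.0, 10.9 and 9.96 FPKM with DADA. All DADA libraries were below all DMSO libraries, with means of 13.7 ± 0.405 and 10.5 ± 0.523 FPKM (SD, n = 4). The fall was -0.36 on the log2 scale (SE 0.0413, limma, adjusted p = 2.94e-05).

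The levels of the 2 T-box genes overlapped with DMSO and were apart with DADA. The within-library log2 ratio of *Tbx21* to *Eomes* was 0.06, 0.15, 0.04 and -0.06 with DMSO and 1.18, 0.99, 0.90 and 1.12 with DADA. Its mean went from 0.05 to 1.05, a difference of 1.00 (exact permutation test, p = 0.0286, adjusted p = 0.0357 over the 5 ratios tested). Because *Tbx21* was higher and *Eomes* lower in every DADA library than in any DMSO library, the ratio had to separate. Its p-value was thereby fixed and adds nothing to the calls of the 2 genes. *Tbx21* made up 50.9% ± 1.61 (SD, n = 4) of the summed FPKM of both genes with DMSO and 68.4% ± 2.04 with DADA, while that sum went from 28.0 ± 1.45 to 33.2 ± 0.941 FPKM.

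Among the repressors, *Prdm1* had the largest change of the 10 factors. *Prdm1* (ENSMUSG00000038151) encodes Blimp-1, a zinc finger repressor of terminal effector cells, plasma cells and exhausted T cells. It was at 0.773, 0.682, 0.587 and 0.604 FPKM in the DMSO libraries and rose to 7.65, 6.64, 8.58 and 7.34 FPKM in the DADA libraries. The means of 0.661 ± 0.0853 and 7.56 ± 0.806 FPKM (SD, n = 4) gave a ratio of 11.4, between 8.59 and 14.6 for single libraries. On the log2(FPKM + 1) scale, which understates the change of low genes, the difference was 2.36 (SE 0.0743, limma, adjusted p = 2.18e-09), and it ranked 59 among the rises of all genes tested. With a pseudocount of 0.1 it was 3.33. *Prdm1* passed the filter through its DADA libraries alone, so it had to differ to be tested. Its level with DMSO corresponded to an estimated 42.9 to 60.9 fragments per library, so it was low there but not at 0.

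Blimp-1 is also the factor of plasma cells, and plasma cell markers were looked at beside it. Of *Jchain*, *Sdc1* and *Tnfrsf17*, the last was listed at 0 in every library and *Jchain* reached at most 0.448 FPKM, while *Sdc1* was at 1.55 ± 0.0561 FPKM with DMSO against 2.36 ± 0.265 FPKM with DADA (SD, n = 4; log2 fold change 0.40, limma, adjusted p = 4.46e-04). Summed, the 3 markers lay between 1.46 and 1.75 FPKM with DMSO and between 2.25 and 2.95 FPKM with DADA, and their part in the rise of *Prdm1* was not tested. The B cell marker *Pax5* was at 0 in all 8 libraries.

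*Bcl6*, which encodes the repressor that opposes Blimp-1 in many lymphocytes, was below the filter, at 0.482 ± 0.0673 FPKM with DMSO against 0.544 ± 0.0511 FPKM with DADA (SD, n = 4), and the groups overlapped. The within-library log2 ratio of *Prdm1* to *Bcl6* was 0.16 ± 0.114 with DMSO and 2.47 ± 0.109 with DADA, given as a description because *Bcl6* was not tested.

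*Zeb2* (ENSMUSG00000026872), a repressor that works downstream of T-bet in terminal effector cells, was the one tested factor without a call. It was at 5.95, 5.07, 5.17 and 5.32 FPKM with DMSO and at 5.58, 5.32, 5.96 and 6.05 FPKM with DADA, and the groups overlapped. The log2 fold change was 0.08 (95% interval -0.05 to 0.21, limma, adjusted p = 0.257; exact permutation test, p = 0.171), so a rise of up to 0.21 remains within the interval. It was 0.013 with quantile normalization and 0.12 without DMSO 1. *Zeb1*, the relative linked to memory cells, was at 12.2 ± 0.767 FPKM with DMSO against 10.8 ± 0.858 FPKM with DADA (SD, n = 4; log2 fold change -0.17, limma, adjusted p = 0.0319). This call was lost when any of DMSO 1, DMSO 3, DADA 1, DADA 2 or DADA 4 was left out, with adjusted p between 0.0631 and 0.0860, without the filter (0.0554), with TPM scaling (0.0808) and with median-ratio scaling (0.0516). The log2 ratio of *Zeb2* to *Zeb1* was -1.05 ± 0.0860 with DMSO and -0.80 ± 0.0906 with DADA, a difference of 0.24 (exact permutation test, p = 0.0286, adjusted p = 0.0357), and without DMSO 3 it was 0.20 (p = 0.0571, exact permutation test).

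The helix-loop-helix factors were the most abundant of the 10, and both rose. *Id2* (ENSMUSG00000020644) encodes an inhibitor that has no DNA-binding region and blocks E proteins, and effector CD8+ T cells depend on it. It was at 32.4, 29.9, 26.7 and 30.4 FPKM with DMSO and at 68.8, 79.6, 90.6 and 68.7 FPKM with DADA. DADA 3 was the highest of the DADA libraries, and the coefficient of variation there was 13.6%, but the lowest DADA library still exceeded the highest DMSO library by a ratio of 2.12. The ratio of means was 2.58, and the log2 fold change 1.33 (SE 0.0891, limma, adjusted p = 5.57e-07).

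The closest relative went the other way. *Id3*, the inhibitor associated with memory precursors and naive cells, fell from 11.5, 10.5, 9.27 and 9.53 FPKM with DMSO to 4.95, 4.38, 3.77 and 4.82 FPKM with DADA, and the log2 fold change was -1.03 (SE 0.0834, limma, adjusted p = 2.26e-06). The log2 ratio of *Id2* to *Id3* was 1.42, 1.43, 1.43 and 1.58 with DMSO and 3.55, 3.90, 4.26 and 3.58 with DADA. This difference of 2.36 was the largest of the 5 ratios tested (exact permutation test, p = 0.0286, adjusted p = 0.0357). Here too, full separation of *Id2* and *Id3* in opposite directions fixed the p-value, which adds nothing to their calls. *Id2* supplied 74.0% ± 1.04 (SD, n = 4) of the summed FPKM of *Id1*, *Id2* and *Id3* with DMSO and 94.1% ± 1.25 with DADA, and the share of *Id3* went from 25.3% ± 1.07 to 5.60% ± 1.27. The sum itself went from 40.3 ± 3.28 to 81.7 ± 9.99 FPKM, and *Id1* reached at most 0.357 FPKM.

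Of the 3 genes for E proteins, which Id proteins bind, the 2 more abundant were lower with DADA and the least abundant was higher. *Tcf3*, which encodes E2A and is named after its values were seen, was at 44.0 ± 1.11 FPKM with DMSO against 41.2 ± 1.02 FPKM with DADA (log2 fold change -0.09, limma, adjusted p = 0.0146). Its groups overlapped, and its call was lost with TPM scaling (-0.06, adjusted p = 0.0938) and quantile normalization (-0.05, adjusted p = 0.133). *Tcf12*, which encodes HEB, fell from 29.9 ± 0.950 to 24.5 ± 0.727 FPKM (log2 fold change -0.28, limma, adjusted p = 3.25e-05). *Tcf4*, which encodes E2-2 and was low, rose from 1.18 ± 0.367 to 2.69 ± 0.428 FPKM (log2 fold change 0.77, limma, adjusted p = 5.11e-04).

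*Bhlhe40* (ENSMUSG00000030103) encodes a repressor of the basic helix-loop-helix class that T cells induce on activation. It was at 203, 205, 201 and 203 FPKM with DMSO and at 394, 384, 382 and 389 FPKM with DADA, above 97.4% of the genes tested with DMSO and above 98.6% with DADA. Replicates were close, at 203 ± 1.75 and 387 ± 5.24 FPKM (SD, n = 4), and the ratio of means was 1.90. The log2 fold change was 0.92 (SE 0.0187, limma, adjusted p = 9.76e-11). The paralog *Bhlhe41* was not tested, at 1.04 ± 0.124 FPKM with DMSO against 0.961 ± 0.0774 FPKM with DADA, and the groups overlapped. So the *Bhlhe40* to *Bhlhe41* log2 ratio, 6.65 with DMSO and 7.63 with DADA, is given as a description.

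Of the Runt family, which binds DNA with the shared partner Cbfb, *Runx3* was dominant and rose. *Runx3* (ENSMUSG00000070691), the factor that silences *Cd4* and sets the cytotoxic lineage, was at 23.0, 25.3, 24.8 and 24.3 FPKM with DMSO and at 53.5, 51.0, 51.6 and 52.1 FPKM with DADA. The DADA libraries lay close together and far above the DMSO libraries, and the ratio of means was 2.14, between 2.02 and 2.33 for single libraries. Its log2 fold change was 1.07 (SE 0.0324, limma, adjusted p = 1.72e-09). *Runx1* (ENSMUSG00000022952), important in thymocytes and naive T cells, was at 0.679, 0.449, 0.750 and 0.645 FPKM with DMSO and at 0.661, 0.706, 0.712 and 1.24 FPKM with DADA. Only DADA 4 reached 1 FPKM, and the groups overlapped (difference 0.16 on the log2 scale, exact permutation test, p = 0.286). Without DADA 4 the difference was 0.058. Without the filter its 95% interval was -0.08 to 0.40 (limma, adjusted p = 0.258).

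All 3 Runx genes carry the motif pair printed above, and they differed in level. *Runx3* gave 73.1% ± 0.525 (SD, n = 4) of the summed Runx FPKM with DMSO and 82.4% ± 0.526 with DADA. The share of *Runx2* went from 25.0% ± 0.434 to 16.2% ± 0.505, although its own level went from 8.31 ± 0.421 to 10.3 ± 0.192 FPKM (log2 fold change 0.27, limma, adjusted p = 2.15e-04), and *Runx1* gave 1.90% ± 0.414 and 1.31% ± 0.430. The family sum went from 33.3 ± 1.32 to 63.1 ± 0.934 FPKM. *Cbfb*, named with *Runx2* after their values were seen, fell from 73.8 ± 0.588 to 61.0 ± 1.02 FPKM (log2 fold change -0.27, limma, adjusted p = 1.74e-06), so the summed Runx level was below that of *Cbfb* with DMSO and above it with DADA.

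**Figure D3:**
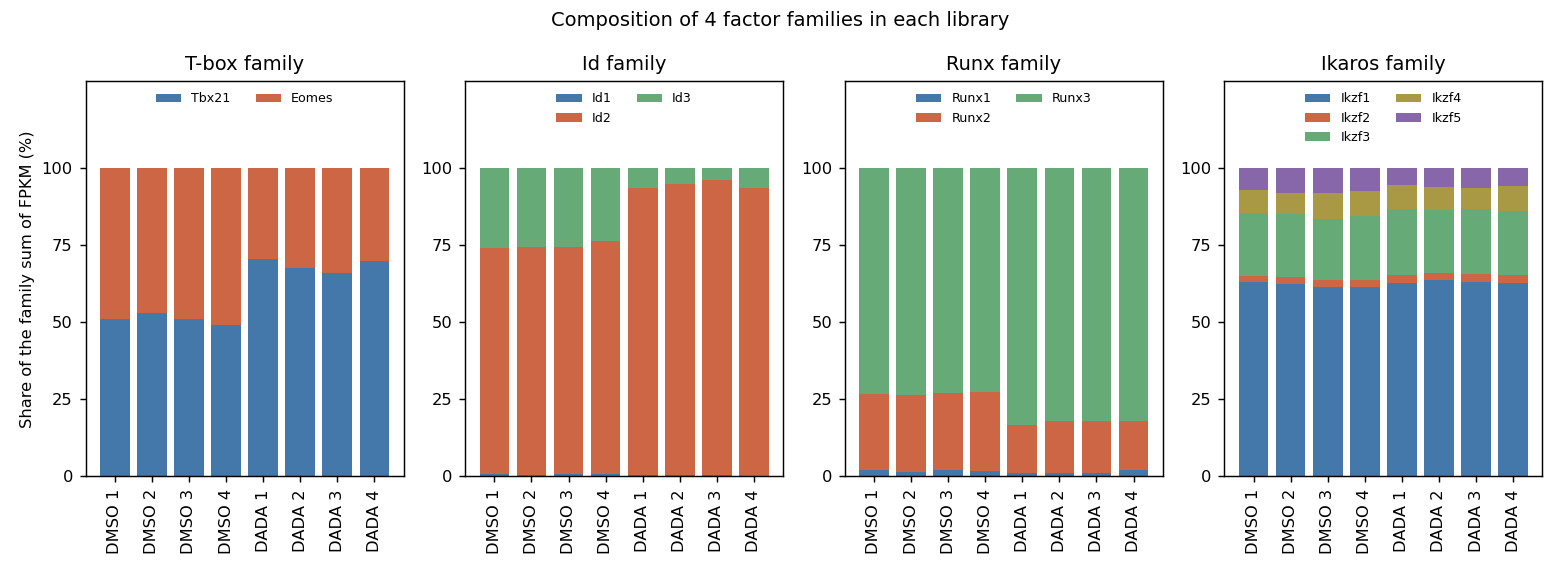
Share of the summed FPKM (vertical axis, %) that each gene gave within 4 factor families, 1 bar per library. *Tbx21* went from 50.9% to 68.4% of the T-box pair, *Id2* from 74.0% to 94.1% of the Id family, *Runx3* from 73.1% to 82.4% of the Runx family and *Ikzf2* from 2.15% to 2.51% of the Ikaros family, on average.

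*Gata3* (ENSMUSG00000015619) encodes the zinc finger factor of type 2 helper cells, which also supports CD8+ T cell maintenance and dysfunction, and it had the largest fall of the 10. It was at 4.25, 4.36, 4.46 and 4.44 FPKM with DMSO and at 2.23, 2.39, 1.88 and 2.29 FPKM with DADA. No library of one group reached the range of the other, and the mean with DADA was 0.502 of that with DMSO. The log2 fold change was -0.75 (SE 0.0588, limma, adjusted p = 1.75e-06). T-bet and Gata3 oppose each other in helper cells, and their log2 ratio was 1.50 ± 0.114 with DMSO and 2.89 ± 0.0713 with DADA, a difference of 1.39 (exact permutation test, p = 0.0286, adjusted p = 0.0357). Full separation of *Tbx21* and *Gata3* in opposite directions fixed this p-value as well, so it adds nothing to their calls.

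*Ikzf2* (ENSMUSG00000025997), which encodes Helios, an Ikaros family factor of regulatory and chronically stimulated T cells, had the smallest rise. It was at 2.49, 2.62, 2.43 and 2.68 FPKM with DMSO and at 3.50, 3.23, 3.51 and 3.65 FPKM with DADA, without overlap. The ratio of means was 1.36 and the log2 fold change 0.33 (SE 0.0511, limma, adjusted p = 2.47e-04). *Ikzf1*, the founding member of the family, was far more abundant and also rose, from 73.6 ± 0.917 to 87.2 ± 0.784 FPKM (log2 fold change 0.24, limma, adjusted p = 2.65e-06). The difference in the log2 ratio of *Ikzf2* to *Ikzf1*, 0.09, did not pass the test (exact permutation test, p = 0.0857, adjusted p = 0.0857). With a pseudocount of 0.1 it was 0.19 (p = 0.0286, exact permutation test). Transcripts of regulatory T cells were at trace levels, with *Foxp3* at 0.0693 ± 0.0248 FPKM with DMSO against 0.214 ± 0.0367 FPKM with DADA (SD, n = 4), and their part in the rise of *Ikzf2* was not tested.

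**Figure D4:**
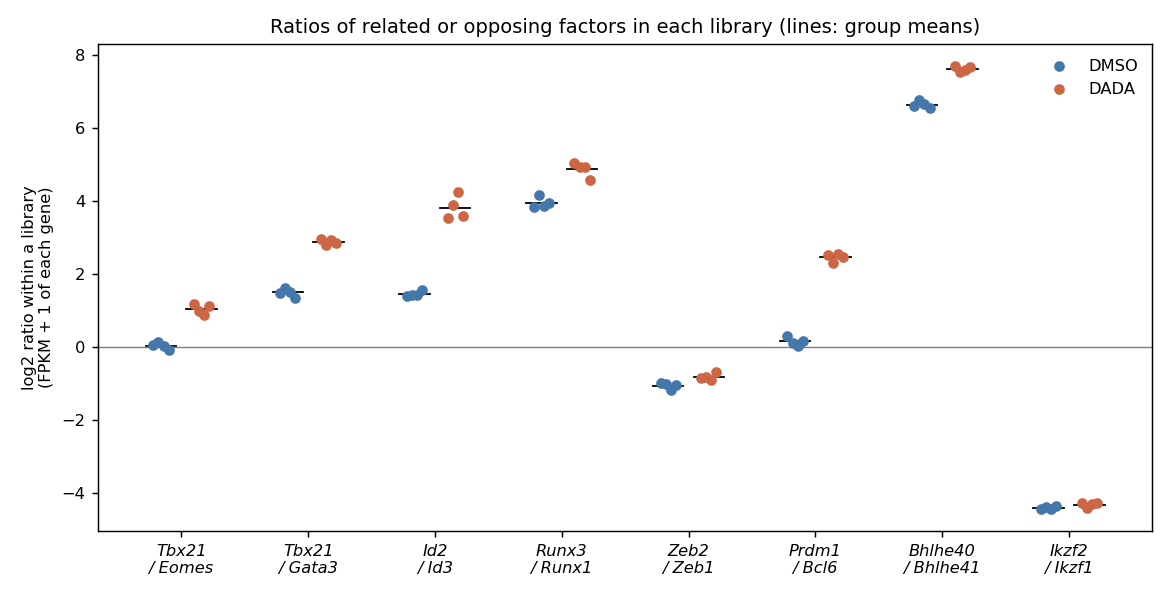
Log2 ratios of FPKM + 1 (vertical axis) between related or opposing factors within each library (points; DMSO blue, DADA red) with group means as lines. *Tbx21* against *Eomes* went from 0.05 to 1.05, *Tbx21* against *Gata3* from 1.50 to 2.89 and *Id2* against *Id3* from 1.46 to 3.83, and the groups overlapped for *Ikzf2* against *Ikzf1* alone among the 8 pairs.

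Placed in order by FPKM, the 10 factors kept *Bhlhe40*, *Id2*, *Runx3* and *Tbx21* as the 4 most abundant in both groups. With DMSO they were followed by *Eomes*, *Zeb2*, *Gata3*, *Ikzf2*, *Prdm1* and *Runx1*. *Tbx21* and *Eomes* overlapped there, as did *Prdm1* and *Runx1*, and the other neighbours did not. With DADA the order after *Tbx21* was *Eomes*, *Prdm1*, *Zeb2*, *Ikzf2*, *Gata3* and *Runx1*, and no neighbours overlapped. *Prdm1* thus stood next to last with DMSO, at 0.661 FPKM, and between *Eomes* and *Zeb2* with DADA, at 7.56 FPKM. *Gata3* and *Ikzf2* changed places.

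DADA 3 was at one end of the DADA libraries for several factors, with the highest *Id2* and *Prdm1* and the lowest *Gata3*, *Tbx21* and *Bhlhe40*. DADA 2 was likewise the lowest for *Prdm1*, *Zeb2*, *Runx3* and *Ikzf2* and the highest for *Eomes* and *Gata3*. DADA 3 therefore did not stand out in this respect. DADA 3 had the lowest estimated depth of the DADA libraries, 15300000 fragments. Without DADA 3, *Id2*, *Prdm1*, *Gata3*, *Tbx21* and *Bhlhe40* kept their calls. Over all libraries left out in turn, the log2 fold changes were 1.25 to 1.38 for *Id2*, 2.30 to 2.41 for *Prdm1* and -0.78 to -0.70 for *Gata3*. They were 0.59 to 0.68 for *Tbx21* and 0.92 to 0.93 for *Bhlhe40*.

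Genes that the factors are known to act on, or that act beside them, were looked at as 7 lists. Each is set beside all genes tested, of which 30.9% were called higher and 35.3% lower (66.2% together), with a median of -0.02. The relatives and partners of the factors went both ways: of 16, 14 were tested, 7 were higher, 5 lower and 2 not called, with a median of 0.13. Besides *Tcf4*, the largest rise among them was that of *Tle3*, a co-repressor that Runx factors recruit, from 22.6 ± 0.581 to 28.1 ± 1.27 FPKM (log2 fold change 0.30, limma, adjusted p = 3.78e-05).

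Of 14 genes induced by T-bet and Eomes, 11 were tested, 8 were higher and 3 not called, with a median of 0.74. *Ccl5*, a chemokine of effector and memory CD8+ T cells, rose from between 10.1 and 12.5 FPKM with DMSO to between 133 and 149 FPKM with DADA (log2 fold change 3.57, limma, adjusted p = 3.74e-11). *Prf1*, which encodes the pore-forming protein perforin, rose from between 23.8 and 26.1 FPKM to between 158 and 168 FPKM (2.66, limma, adjusted p = 4.07e-12). *Klrg1*, *Cx3cr1* and *S1pr5*, markers of terminal effector cells named after their values were seen, were at or near 0 in both groups, with at most 0.136, 0.0745 and 0.121 FPKM.

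Of 11 genes that Blimp-1 is known to repress, 9 were tested, and 7 of them were higher with DADA, 1 was lower and 1 was not called, with a median of 0.74. *Klf2*, the factor that keeps naive and memory cells circulating, rose from 0.842 ± 0.164 to 3.03 ± 0.508 FPKM (log2 fold change 1.13, limma, adjusted p = 4.18e-06). The gene that fell was *Id3*. *Il2*, below 1 FPKM in every DMSO library, and *Klf2*, below it in 3 of the 4, passed the filter through their DADA libraries, so they had to differ to be counted here (*Il2* is named after its values were seen). So *Prdm1* and most of these genes were higher in the same libraries.

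Regulators of memory and stem-like cells were also higher: of 10, 9 were tested, 8 were higher and 1 was not called, with a median of 0.44. *Klf2* had the largest rise here too, followed by *Tcf7*, which encodes TCF1, from 32.9 ± 0.634 to 56.2 ± 1.17 FPKM (log2 fold change 0.75, limma, adjusted p = 3.75e-09). *Klf2*, *Tcf7* and *Bcl6* stand in both this list and the Blimp-1 list.

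Of 17 other regulators of effector and resident cells, 15 were tested, and 11 were higher, 2 lower and 2 not called, with a median of 0.51. *Nfil3*, a basic leucine zipper factor, rose from 28.9 ± 1.45 to 73.3 ± 3.36 FPKM (log2 fold change 1.31, limma, adjusted p = 2.76e-09). *Irf4*, which follows the strength of T cell receptor signals and supports effector expansion, rose from between 73.2 and 76.3 FPKM to between 138 and 142 FPKM (0.91, limma, adjusted p = 3.05e-10). *Notch2*, a Notch receptor gene, fell from 15.4 ± 0.370 to 11.4 ± 0.508 FPKM (-0.40, limma, adjusted p = 7.21e-06) and *Rbpj*, which encodes the DNA-binding partner of Notch, from 209 ± 4.54 to 186 ± 4.20 FPKM (-0.17, limma, adjusted p = 1.25e-04). *Notch1*, named after its values were seen, rose from 11.6 ± 0.419 to 16.9 ± 0.604 FPKM (0.51, limma, adjusted p = 1.24e-06).

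Runx3 activates the CD8 coreceptor genes and silences helper genes, and 3 of the 5 genes of that list were tested, of which 2 were higher and 1 lower, with a median of 0.28. *Cd8a* rose from 126 ± 1.93 to 154 ± 5.44 FPKM (log2 fold change 0.28, limma, adjusted p = 8.39e-06) and *Cd8b1* from 151 ± 3.22 to 193 ± 3.38 FPKM (0.35, limma, adjusted p = 4.29e-07). *Zbtb7b*, which encodes the helper lineage factor ThPOK, fell from 16.4 ± 0.331 to 15.0 ± 0.242 FPKM (-0.11, limma, adjusted p = 0.00606). *Cd4* and *Itgae*, which encodes the CD103 integrin chain, reached at most 0.411 and 0.266 FPKM and were not tested.

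Of 6 type 2 genes tied to Gata3, 3 were tested, and each had a different outcome, with a median of 0.09 that was -0.12 without the filter. *Il13*, the type 2 cytokine, fell from 17.4, 16.3, 15.8 and 15.7 FPKM with DMSO to 3.87, 4.16, 3.81 and 4.10 FPKM with DADA (log2 fold change -1.80, limma, adjusted p = 3.92e-10). The chemokine receptor gene *Ccr4* rose from 14.3 ± 0.690 to 16.9 ± 0.326 FPKM (0.22, limma, adjusted p = 4.85e-04). *Il1rl1*, which encodes the IL-33 receptor, was at 0.976 ± 0.0841 and 1.10 ± 0.150 FPKM and was not called (0.09, limma, adjusted p = 0.292), with a sign that flipped under quantile normalization. *Ccr8* missed the filter, at 1.06 ± 0.267 FPKM with DMSO against 0.345 ± 0.115 FPKM with DADA, without overlap (exact permutation test, p = 0.0286), and *Il4* and *Il5* reached at most 0.619 and 0.367 FPKM.

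**Figure D5:**
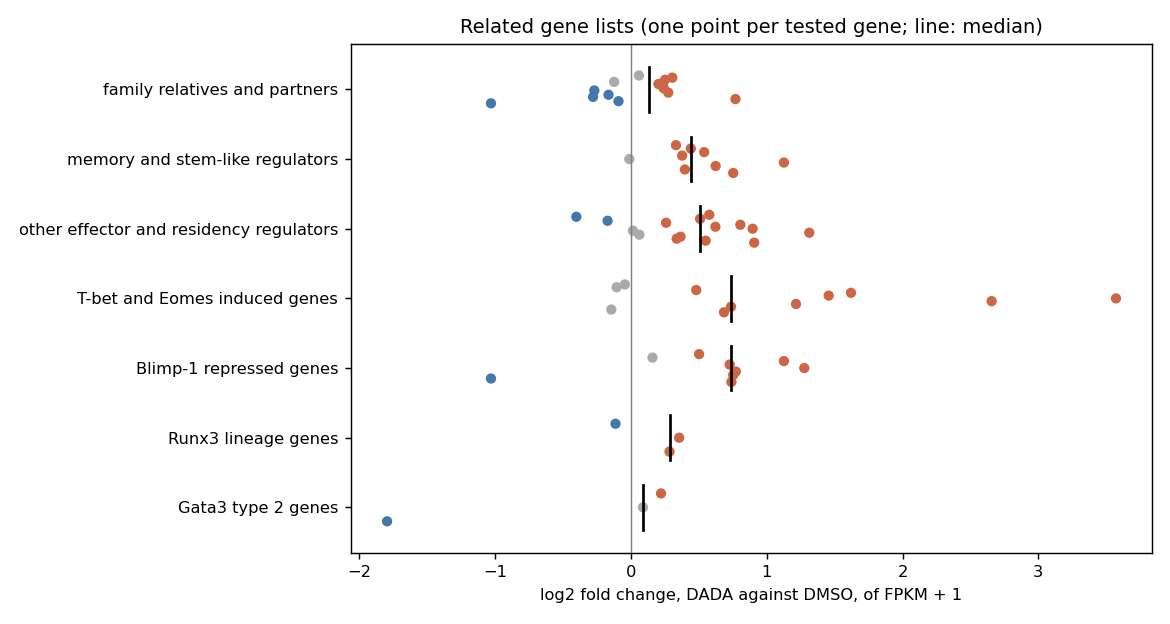
Log2 fold changes of FPKM + 1, DADA against DMSO (horizontal axis), of the tested genes of 7 related lists (red higher, blue lower, grey not called), with each list's median as a line. The medians were 0.74 for the T-bet and Eomes list and for the Blimp-1 list, 0.51 for other effector regulators, 0.44 for memory regulators, 0.28 for Runx3 genes, 0.13 for relatives and 0.09 for Gata3 genes, the last being negative under some settings.

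For the factors with the largest rise and the largest fall, the genes with the most similar profile were found by the root mean square difference of log2(FPKM + 1), each taken from its own DMSO mean, over the 8 libraries and 10426 candidate genes. The profile of *Prdm1* was closest to *Ppp1r3b*, which encodes a glycogen-targeting subunit of protein phosphatase 1 and went from 3.97 ± 0.0936 to 24.6 ± 0.687 FPKM (difference 0.0885). Next was *Smtnl2*, from 0.0141 ± 0.0171 to 4.24 ± 0.309 FPKM (difference 0.0982). Like *Prdm1*, *Smtnl2* passed the filter through its DADA libraries alone, so it had to be higher with DADA to be a candidate. *Gata3* was closest to *Rbbp7*, a histone-binding chromatin subunit gene at 215 ± 5.41 and 130.3 ± 5.76 FPKM (difference 0.0449), and to *Ranbp1*, a regulator of the Ran GTPase at 266 ± 5.71 and 161 ± 6.50 FPKM (difference 0.0534). Since the measure compares changes on the log2 scale and not levels, and all candidates share the same 8 libraries, such likeness is mainly likeness in the size of the group difference.

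The libraries matched their labelled cell type. All 5 CD8 T cell markers, *Cd8a*, *Cd8b1*, *Cd3d*, *Cd3e* and *Cd3g*, were present, with a sum of 674 to 680 FPKM with DMSO and 776 to 805 FPKM with DADA. All 5 were called higher, as were 30.9% of all genes tested. The groups of *Cd3g* overlapped, and its call (limma, adjusted p = 0.0376) was lost without the filter (limma, adjusted p = 0.0541). Markers of other cells were low. The sums were 2.59 to 3.54 FPKM with DMSO and 2.36 to 3.09 FPKM with DADA for B cells, where *Cd79b* alone passed 1 FPKM, and at most 0.346 FPKM for NK cells, 0.718 FPKM for CD4 and regulatory T cells, 0.188 FPKM for myeloid cells and 0.169 FPKM for erythroid cells. The NK cell sum lay between 0 and 0.0959 FPKM with DMSO and between 0.144 and 0.346 FPKM with DADA. *Klrb1c* carried most of this difference, at 0, 0.0236, 0 and 0.0484 FPKM with DMSO against 0.249, 0.144, 0.200 and 0.148 FPKM with DADA, without overlap. *Ncr1* and *Klra8* overlapped between the groups. The part of NK cells in the rises of *Id2* and *Tbx21*, factors that NK cells also express, was not tested.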

How the data were processed

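The data are 8 RNA-seq libraries of CD8+ T cells from mouse spleen, grouped as DMSO or DADA (4 each) by their titles and the treatment protocol. From paired reads of 150 bp, the authors computed and deposited FPKM for each gene in each library. The submitters' processing notes list CASAVA 1.8.2, FastQC 0.11.9, HISAT2 2.0.5, StringTie 1.3.3, Picard 1.41, SAMtools 0.1.18 and the builds GRCh38 and GRCm39, with no role for each, so no gene coordinates are given. The labels and the methods name different library kits, and whether fragments were assigned by strand is not given in the sources used here. *Eomes*, *Zeb2*, *Runx1*, *Bhlhe40*, *Gata3* and *Ikzf2* overlap antisense genes in GENCODE M21, whose reads could not be told apart without strand. On their own strand, *Gata3* also overlaps a protein-coding gene and *Zeb2* a microRNA gene, which strand would not separate.

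The FPKM were used as deposited. Depth was estimated from the steps between low values, of which 31.6% to 46.9% per library lay within 0.1 of a whole fragment, so no count test was run. Chance gives 20% for a step fixed beforehand. The step was fitted to these same values in each library, so chance gives more than that here. The scale was log2(FPKM + 1), the filter 1 FPKM in at least 4 of 8 libraries, and the test limma 3.58.1 in R 4.3.3, with a mean-variance trend in eBayes and p-values adjusted by Benjamini and Hochberg over all 10666 genes. Single values and 5 of 8 within-library ratios (those with both genes tested) were tested by exact permutation (two-sided, 70 assignments), adjusted over the 5. On simulated data for this comparison, with 200 changed of 10666 genes, the fit recovered 182 (91%) and made 188 calls, 6 of them false. The simulation changed a far smaller share of genes than the 66.2% called here and drew noise independently for each gene. Its recovery and false calls may therefore differ from those of the data. Replicate numbers were not taken as pairs: the correlations of same-numbered libraries were 0.0953, -0.120, -0.0877 and 0.0751.

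The factors, lists and ratios were chosen with earlier results of these data known. Named genes were the factors, for each list the 2 called genes that rose most and the 2 that fell most, all genes of the Runx3 and Gata3 lists, the genes of each ratio, and the 2 most similar profiles to the factors with the largest rise and fall. A gene that this rule selects is not reported here. Lists are described by counts and medians. Alternatives were a pseudocount of 0.1, no filter, a mean of at least 5 FPKM, TPM, median-ratio and quantile scaling, eBayes without trend, a replicate block, leaving out assembled transcripts and leaving out each library. A mean of at least 1 FPKM was added after seeing the data. Promoter windows came from RefSeq (GRCm38.p6). Figures used matplotlib 3.10.9.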

Additional observations from a re-analysis of the deposited data

Results flagged for a closer look

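In 4 of the 86 groups of 4 libraries looked at, 1 library lay far from the other 3, judged by its gap to the nearest library as a share of the whole range of the group and set against Dixon's critical value for 4 values, where chance gives about 4.3. *Runx1* with DADA had a ratio of 0.912, from DADA 4 at 1.24 FPKM against 0.661 to 0.712 FPKM in the others. The log2 ratio of *Id2* to *Id3* with DMSO had a ratio of 0.903, from DMSO 4 at 1.58 against 1.42 to 1.43, a small gap beside the 3.55 to 4.26 of the DADA libraries. *Ikzf1* with DADA had a ratio of 0.934, from DADA 1 at 86.0 FPKM against 87.5 to 87.6 FPKM. *Cd8b1* with DMSO had a ratio of 0.838, from DMSO 4 at 146 FPKM against 152 to 153 FPKM.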

How the results depend on the processing

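Of 365 recomputed values, 343 were counted as unchanged. For tested factors and ratios this meant the same direction and call, whatever the size. For *Runx1*, the list medians and the number of genes called it meant a similar size. Over the settings that kept all libraries, *Prdm1* ranged from 2.18 to 3.33 and *Ikzf2* from 0.22 to 0.43. No value reversed a called direction, and the 8 called factors kept their calls in every fit that tested them. With a mean of at least 5 FPKM, 6 factors were tested and 5 called. The number of genes called was 5741 (mean of at least 5 FPKM) to 7868 (no filter), and 6700 to 6848 with a library left out. The replicate block gave 6995 calls (3251 higher, 3744 lower) and changed no call of a factor; its paired permutation test cannot go below p = 0.125, so the ratios *Tbx21* to *Eomes* (1.00), *Tbx21* to *Gata3* (1.39), *Id2* to *Id3* (2.36) and *Zeb2* to *Zeb1* (0.24) could not pass it. Without each library in turn, *Zeb2* to *Zeb1* was 0.20 to 0.28 and lost its call without DMSO 3, and the memory list median was 0.41 to 0.50. With a pseudocount of 0.1, *Runx1* was at 0.33, the Gata3 list median at 0.16 and *Ikzf2* to *Ikzf1*, at 0.19, passed the test. Without the filter, list medians were 0.031 (relatives), 0.36 (other effector regulators), 0.58 (T-bet and Eomes), 0.025 (Runx3) and -0.12 (Gata3). With a mean of at least 5 FPKM they were 0.055 (relatives), 0.98 (T-bet and Eomes) and -0.79 (Gata3), with a mean of at least 1 FPKM 0.058 (relatives), and with quantile normalization 0.068 (relatives), 0.63 (Blimp-1) and -0.17 (Gata3). Filters change which members enter a median; the cause of the other shifts was not tested. Factors near 1 FPKM, *Runx1* and *Prdm1* with DMSO, rest on an estimated 42.9 to 136 fragments per library, which limits their precision.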
